A study of Mus musculus with 4 samples.

Results

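Long non-coding RNA (lncRNA) genes are transcribed but not translated, and many lie between or inside protein-coding genes without sharing their promoters. H3K27ac peaks were taken here on chromosomes 1 to 19 when they lay within 1 kb of either end of an mm10 RefSeq lncRNA gene and more than 5 kb from either end of every RefSeq protein-coding gene. These lncRNA-end peaks numbered 3123 in Smchd1-deleted cells and 2264 in Smchd1-control cells, 5387 of the 155337 peaks deposited for both. The choice used position only and no measured height.

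Both libraries came from female mouse neural stem cells, derived per the protocol from E14.5 embryos with 1 deleted and 1 floxed Smchd1 allele. Deleted cells (Smchd1 del/del) had received a retrovirus carrying Cre recombinase, MSCV-Cre-puro, were put under puromycin after 24 h and were harvested on day 7. Control cells were kept untransduced, so deletion, transduction and selection cannot be told apart. All cells carried a maternal X from strain 129 with an Xist deltaA allele and a Castaneus paternal X, while the strain field gives C57BL/6. Each group had 1 H3K27ac ChIP library and 1 whole-cell-extract input from the same kind of cells. Groups follow the sample titles, and other fields differ from them. The antibody field names H3K27me3, the genotype field of the control ChIP gives del/fl where its title gives fl/fl, and that of the control input gives del/del. Of 12 coding markers of neural stem cells, 10 carried a peak at a gene end in both lists, 1 in the control list alone, and Pax6 had none in either. Among coding markers of other cells, 1 of 4 neuronal, 0 of 3 microglial, 0 of 2 endothelial, 0 of 2 pluripotency and 1 of 3 fibroblast genes carried one in both, and 1 endothelial gene had one in the control list alone.

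Acetylation of histone H3 at lysine 27 marks active promoters and enhancers, so a peak at a lncRNA end may belong to the promoter of the lncRNA or to an enhancer that is itself transcribed. The selection measures distance to the ends of coding genes only, so it does not leave out promoters inside a coding gene. Several lncRNA genes act as containers of microRNAs or small nucleolar RNAs, which are cut from their transcripts. Others are transcribed across imprinted clusters from 1 parental copy. The Smchd1 protein binds chromatin and is best known for silencing on the inactive X, and it also acts at some imprinted clusters. Fold enrichment is throughout the authors' MACS2 value, the pileup at a peak's summit over the background the caller used there. Peaks of equal pileup often had equal values, such as 16.96 for a pileup of 100 at both Malat1 and Sox6os in deleted cells. The background was thus often the same at different places. Fold enrichment is not scaled between libraries, so values of both lists stand side by side without a claim of change. Acetylation in fewer cells cannot be told apart from less acetylation per cell.

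The starts of 5 lncRNA genes are shown because, ranked by the lower of the values in the deleted and control lists, they held the highest peaks among the 356 lncRNA promoters that a lncRNA-end peak overlapped in both lists. The start of Meg3, an imprinted lncRNA with no lncRNA-end peak in either list, is shown beside them. Each runs from 250 bases before the start to 50 after it, 5′ to 3′ along the gene, from RefSeq on GRCm38.p6, the same primary assembly as mm10. Capitals mark the CpG dinucleotides.
Pantr2, chr1:42713405-42713704, minus strand: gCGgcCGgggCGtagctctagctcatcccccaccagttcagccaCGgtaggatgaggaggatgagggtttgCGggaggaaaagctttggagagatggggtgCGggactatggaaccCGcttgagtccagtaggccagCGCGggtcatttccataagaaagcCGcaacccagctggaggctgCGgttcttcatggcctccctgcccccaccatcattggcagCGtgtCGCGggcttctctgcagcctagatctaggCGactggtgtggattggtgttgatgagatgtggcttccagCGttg
Sox6os, chr7:116031729-116032028, plus strand: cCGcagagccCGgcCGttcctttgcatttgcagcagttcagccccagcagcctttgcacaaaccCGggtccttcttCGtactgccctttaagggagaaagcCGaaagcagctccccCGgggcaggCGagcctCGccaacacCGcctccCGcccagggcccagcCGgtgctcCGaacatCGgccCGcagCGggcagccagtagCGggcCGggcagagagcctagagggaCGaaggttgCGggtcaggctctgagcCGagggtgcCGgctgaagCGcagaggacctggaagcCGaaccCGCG
Malat1, chr19:5802623-5802922, minus strand: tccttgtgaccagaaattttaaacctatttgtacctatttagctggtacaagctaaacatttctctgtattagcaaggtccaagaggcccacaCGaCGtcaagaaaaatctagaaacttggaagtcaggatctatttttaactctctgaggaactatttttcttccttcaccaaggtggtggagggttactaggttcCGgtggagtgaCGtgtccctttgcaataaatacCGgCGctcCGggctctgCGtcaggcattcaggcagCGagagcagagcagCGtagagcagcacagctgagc
C130071C03Rik, chr13:83721131-83721430, plus strand: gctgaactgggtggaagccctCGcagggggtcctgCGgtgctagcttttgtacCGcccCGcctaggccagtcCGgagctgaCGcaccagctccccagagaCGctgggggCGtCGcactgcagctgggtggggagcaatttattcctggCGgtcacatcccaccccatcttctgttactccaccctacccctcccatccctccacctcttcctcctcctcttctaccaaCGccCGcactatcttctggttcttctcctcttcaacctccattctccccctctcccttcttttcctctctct
Gm41209, chr14:73525052-73525351, plus strand: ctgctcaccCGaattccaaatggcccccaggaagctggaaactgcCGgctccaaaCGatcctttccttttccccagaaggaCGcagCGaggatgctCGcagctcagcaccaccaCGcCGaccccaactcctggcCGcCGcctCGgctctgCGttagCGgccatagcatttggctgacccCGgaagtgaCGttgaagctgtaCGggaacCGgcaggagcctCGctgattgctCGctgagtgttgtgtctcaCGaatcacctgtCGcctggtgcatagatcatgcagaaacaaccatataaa
Meg3, chr12:109540746-109541045, plus strand: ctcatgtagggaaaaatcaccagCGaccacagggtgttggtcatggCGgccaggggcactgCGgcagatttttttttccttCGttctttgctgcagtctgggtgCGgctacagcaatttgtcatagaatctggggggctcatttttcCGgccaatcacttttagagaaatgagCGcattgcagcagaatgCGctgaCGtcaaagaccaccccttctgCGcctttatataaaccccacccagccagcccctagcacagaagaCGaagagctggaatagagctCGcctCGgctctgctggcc

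Mature sequences, from the RefSeq miRNA table on the same build, of microRNAs that lie inside lncRNA genes with such peaks are shown next, since all 3 genes of miR-9 and several let-7 family genes were among them. Capitals mark the seed, bases 2 to 8, which pairs with target messages. The sequence of miR-9-5p was the same from Mir9-1, Mir9-2 and Mir9-3, and so was that of miR-9-3p. The let-7b and let-7c sequences share a seed.
mmu-miR-9-5p: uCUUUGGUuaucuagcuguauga
mmu-miR-9-3p: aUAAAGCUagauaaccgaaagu
mmu-let-7b-5p: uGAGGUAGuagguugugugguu
mmu-let-7c-5p: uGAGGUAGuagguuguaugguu
mmu-miR-16-5p: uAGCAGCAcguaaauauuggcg
mmu-miR-22-3p: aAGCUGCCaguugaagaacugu
mmu-miR-100-5p: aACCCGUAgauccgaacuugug
mmu-miR-125b-5p: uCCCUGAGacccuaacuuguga
mmu-miR-101a-3p: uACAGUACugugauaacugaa

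The highest lncRNA-end peaks of both cultures included lncRNA genes next to or inside the transcription factor genes Pou3f3, Sox6 and Nfia, Malat1, and a host of miR-9. All 10 of the highest peaks in each list met a peak of the other list, and 7 lncRNAs were named in both top 10. AW047730 held the highest in each, with a fold enrichment of 23.3 in deleted cells and 22.6 in control cells. Its deleted-cell peak, chr3:88199465-88203478, ended 6 bases short of the far end of the gene and ranked 4 in its list. The control-cell peak was longer, 6451 bases against 4014 in deleted cells, and ranked 5. Gm31365, which lies inside the coding gene Tnrc18, had a peak of 17.5 in deleted cells and 19.4 in control cells. Pantr2, a neighbour of the neural transcription factor gene Pou3f3, had 17.5 in deleted cells and 17.4 in control cells over its start. Gm46091, also by Pou3f3, had 13.4 in deleted cells and 14.3 in control cells. Sox6os lies inside Sox6, which encodes a transcription factor of neural and glial precursors, and had 17.0 in deleted cells and 15.5 in control cells. Gm38709, inside Nfia, which encodes a nuclear factor I protein of glial differentiation, had 14.94 in deleted cells and 14.53 in control cells. Malat1 encodes an abundant nuclear lncRNA. A 4098-base peak over its 5′ part had 17.0 in deleted cells, against 16.5 for a 4035-base peak in control cells. A second peak upstream of its start had 15.3 in deleted cells and 14.9 in control cells. B330016D10Rik had 14.9 in deleted cells against 10.5 in control cells, and Gm20652 had 12.93 in deleted cells and 14.53 in control cells. None of these pairs can be called different, since there was 1 library per group.

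All 3 genes of miR-9, a microRNA of neural progenitors, were inside lncRNA genes with lncRNA-end peaks in both lists. C130071C03Rik, the host of Mir9-2, had 3 such peaks in deleted cells and 5 in control cells. Its highest value was 14.6 in deleted cells, from a 4437-base peak over the start, and 18.6 in control cells, from a 3387-base peak that ended 168 bases upstream of the start. A separate control-cell peak of 11.3 lay over the start itself. Gm3764, which contains Mir9-1 and lies just past the far end of AW047730, had 6 peaks with a highest value of 14.4 in deleted cells and 5 with a highest value of 13.1 in control cells. Both ends of that gene were marked, the far end by peaks of 9.91 and 10.5 in deleted cells and of 5.17 and 7.20 in control cells. Mir9-3hg, around Mir9-3, had 6 peaks with a highest value of 6.38 in deleted cells and 4 with a highest value of 5.85 in control cells.

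Across the RefSeq miRNA table, 26 of 919 autosomal hairpins lay on the same strand inside 20 lncRNA genes with a lncRNA-end peak. Of these hosts, 18 had peaks in both lists, 2 in the deleted list alone and 0 in the control list alone. Gm32817 and Gm53058, both among the 18, share a start, the same peaks and the same hairpins, so 1 place is counted 2 times. Of all 2130 lncRNA genes with a lncRNA-end peak, 56.6% had peaks in both lists, 32.9% in the deleted list alone and 10.5% in the control list alone. Dleu2, around Mir16-1, had a highest peak of 13.6 in deleted cells and 9.40 in control cells. Snhg20, around Mir6516, had 8.06 in deleted cells and 10.3 in control cells. Mir22hg had overlapping peaks of 5.88 in deleted cells against 4.84 in control cells, and of 5.44 in deleted cells against 5.02 in control cells. The let-7 genes Mirlet7b and Mirlet7c-2 lay in Lncppara, which had 4 peaks up to 5.21 in deleted cells and 2 up to 3.17 in control cells. Mir100hg, which spans Mir100, Mirlet7a-2 and Mir125b-1, had 1 peak over its start in each list, 4.03 in deleted cells and 4.20 in control cells. E130102H24Rik, around Mir101a, had 4.37 in deleted cells and 4.40 in control cells. The hosts in the deleted list alone rested on 1 low peak each, 2.85 at Dnm3os, which contains Mir199a-2 and Mir214, and 3.36 at 6030407O03Rik, which contains Mir6351.

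A list chosen for neural and brain tissue, though not limited to lncRNAs particular to it, held 17 in the gene table. Of these, 8 had a lncRNA-end peak in both lists and 0 in a single list. Of all 12408 autosomal lncRNA genes, 9.71% were marked this way in both lists, 5.65% by the deleted list alone and 1.81% by the control list alone, and of the 363 with a name of their own and an end far from coding genes, 30.0% had one in either list. Sox2ot, which overlaps the stem cell gene Sox2, had 9.40 in deleted cells and 7.26 in control cells at 1 of its ends. Zeb2os, inside Zeb2, had 12.4 in deleted cells and 11.1 in control cells. Pvt1, the neighbour of the growth regulator Myc, had 9.74 in deleted cells and 8.88 in control cells. Neat1, the scaffold of nuclear paraspeckles, had 4 peaks up to 8.23 in deleted cells and 3 up to 7.87 in control cells. The lower values were 4.37 in deleted cells and 3.63 in control cells at Sox1ot, and 3.86 in deleted cells and 4.20 in control cells at Lncpint. Malat1 and Mir9-3hg, described above, complete the 8. Of the other 9, Pantr1 and Tug1 had gene-end peaks in both lists that lay nearer a coding gene, while Rmst, Miat, Dlx6os1, Six3os1, Otx2os1, Pax6os1 and Mir124a-1hg had no peak at either end.

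The imprinted list held 8 lncRNAs in the table, of which 3 had a lncRNA-end peak in both lists, against the 9.71% of all autosomal lncRNAs. Of the 363 with a name of their own and an end far from coding genes, 30.0% had one in either list. Kcnq1ot1, transcribed from an imprinted promoter inside Kcnq1, had 4.87 in deleted cells and 6.40 in control cells, in each case within 1 kb of its start. Airn, the antisense transcript of Igf2r, had peaks of 3.69 and 5.33 in deleted cells and of 4.80 in control cells. The lower of its deleted-cell peaks overlapped the control-cell one, and the higher had no control-cell partner. Peg13 had 6.83 in deleted cells and 4.84 in control cells. H19, Meg3, Rian, Mirg and Snhg14 had no peak within 1 kb of either end in either list, the 3 of them from Meg3 to Mirg lying in 1 cluster on chromosome 12.

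Small nucleolar RNA hosts, whose introns release guides for RNA modification, split by their distance from coding genes. Of 18, of which 7 had an end more than 5 kb from coding genes, 5 had lncRNA-end peaks in both lists. Over all autosomal lncRNAs that share was 9.71%. Of the 363 with a name of their own and an end far from coding genes, 30.0% had one in either list. Among the 5 were Snhg15 (12.4 in deleted cells, 11.3 in control cells), Snhg17 (10.1 in deleted cells, 9.68 in control cells) and Snhg5 (6.38 in deleted cells, 10.3 in control cells). Of the 12 with none, 11 had gene-end peaks that were too close to a coding gene to be counted here. Snhg11, which is also a marker of neurons, had 1 peak of 3.19 over its start in deleted cells and none in control cells, while the neuronal lncRNAs Meg3, Rian and Mirg had none in either. Of 14 genes named as miRNA hosts, 5 had peaks in both lists (9.71% over all autosomal lncRNAs), the highest at Mir99ahg with 8.40 in deleted cells and 6.60 in control cells. Mir124-2hg, the host of a neuronal microRNA, had 1 peak of 4.44 in control cells and none in deleted cells. Opposite-strand transcripts were picked by the form of their symbol, which also took in Gas5. Of these 215 lncRNAs, 21 had lncRNA-end peaks in both lists, 17 in the deleted list alone and 2 in the control list alone. That is near the 9.71%, 5.65% and 1.81% of all autosomal lncRNAs. However, 152 of the 215 had an end more than 5 kb from coding genes, against 10825 of all 12408. Of the 175 with no lncRNA-end peak, 54 had gene-end peaks too close to a coding gene to be counted. Besides Sox6os and Zeb2os, the highest lncRNA-end peak by the larger value of both lists was at Nkx2-2os (13.3 in deleted cells, 12.3 in control cells). After it came Prkag2os1 (8.40 in deleted cells, 12.3 in control cells) and Oip5os1 (11.2 in deleted cells, 11.9 in control cells). Egfros, antisense to the growth factor receptor gene Egfr, had 3 peaks in each list, up to 4.37 in deleted cells and 6.00 in control cells. Among the 17, the highest was Rapgef3os2 at 5.0 in deleted cells, and that gene also had a gene-end peak of 4.64 in control cells that lay too close to a coding gene to be counted. Zfp335os, with 3.02 in deleted cells, likewise had uncounted gene-end peaks up to 17.8 in deleted cells and 20.4 in control cells.

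**Figure D1:**
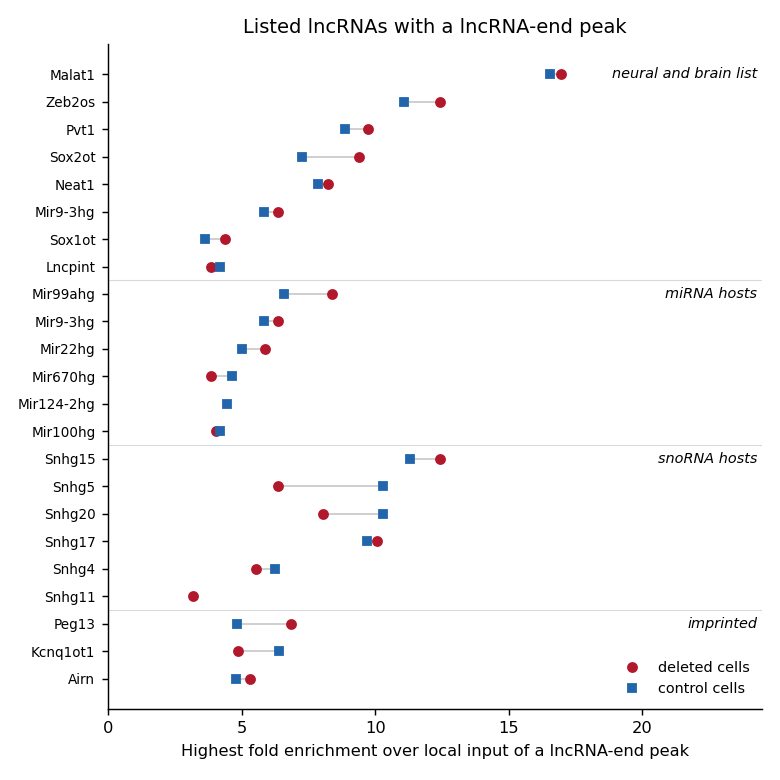
Highest fold enrichment of a lncRNA-end peak (horizontal axis) in deleted cells (red circles) and control cells (blue squares), 1 library each. Rows are the lncRNAs of the neural, miRNA-host, snoRNA-host and imprinted lists that held such a peak (opposite-strand and other-cell-type lists not drawn). The symbols of a row can come from different peaks of that lncRNA. Of those drawn, Malat1 lies highest at 17.0 in deleted cells against 16.5 in control cells, and those with a single symbol are Snhg11 (3.19, deleted cells) and Mir124-2hg (4.44, control cells).

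Of 17 pluripotency lncRNAs, 15 had no lncRNA-end peak, and Platr6 had peaks up to 2.85 in the deleted list alone. Platr26 had overlapping peaks at its start, 2.69 in deleted cells and 3.60 in control cells. Its far end had a peak of 2.85 in deleted cells without a control-cell partner. Over all autosomal lncRNAs 17.2% had a lncRNA-end peak in either list, the background against which these small counts are to be read. The single oligodendrocyte lncRNA, both mesoderm lncRNAs, the 3 Hox cluster lncRNAs and Mir155hg of immune cells had none. The heart lncRNA Mhrt had gene-end peaks near a coding gene only.

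More lncRNA-end peaks were called in deleted cells, by a ratio of 1.38 (exact 95% interval 1.31 to 1.46), against 1.44 (1.42 to 1.45) over all autosomal peaks. The deeper library was also that of the deleted cells. ChIP tags left after filtering numbered 54194233 in deleted cells against 42277672 in control cells, a ratio of 1.28. Of the lncRNA-end peaks, 1450 of 3123 in the deleted list (46.4%, 44.7 to 48.2) had no overlap in the control list, and 524 of 2264 in the control list (23.1%, 21.4 to 24.9) had none in the deleted list. Over all autosomal peaks the same shares were 50.7% for the deleted list and 24.4% for the control list, so the lncRNA ends stood close to that background. With the deleted list reduced to its 62955 most significant autosomal peaks, as many as the control list has, the ratio was 1.01 and the shares were 35.2% for the deleted list and 30.2% for the control list. Intervals cover counting error only, and peaks near each other are not independent. The ratio was above 1 on each of the 19 autosomes, from 1.23 on chromosome 16 to 1.69 on chromosome 14, with a median of 1.38. The chromosomes share the same libraries and are not replicates.

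Peaks without overlap in the other list, called list-only here, had lower values and were shorter than shared ones. Shared lncRNA-end peaks had a median fold enrichment of 4.44 in each list, against 3.27 for list-only peaks of deleted cells and 3.43 for those of control cells. Median lengths of shared peaks were 504 bases in deleted cells against 378 in control cells, and those of list-only peaks were 245 in deleted cells and 220 in control cells. Below a fold enrichment of 3, 24.7% of peaks in deleted cells and 53.7% in control cells overlapped the other list. At 7 to 10 the share was 100% of 186 peaks in deleted cells and 99.4% of 172 in control cells. From 10 upwards all 70 peaks of deleted cells and all 56 of control cells were shared. At a fold enrichment of at least 5, a limit chosen after the data were seen, 31 of 672 peaks in deleted cells (4.61%) and 15 of 619 in control cells (2.42%) had no overlap in the whole other list. Among all autosomal peaks of that height these shares were 4.13% for the deleted list and 1.29% for the control list. The ratio of 672 to 619 was 1.09 (0.972 to 1.21).

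**Figure D2:**
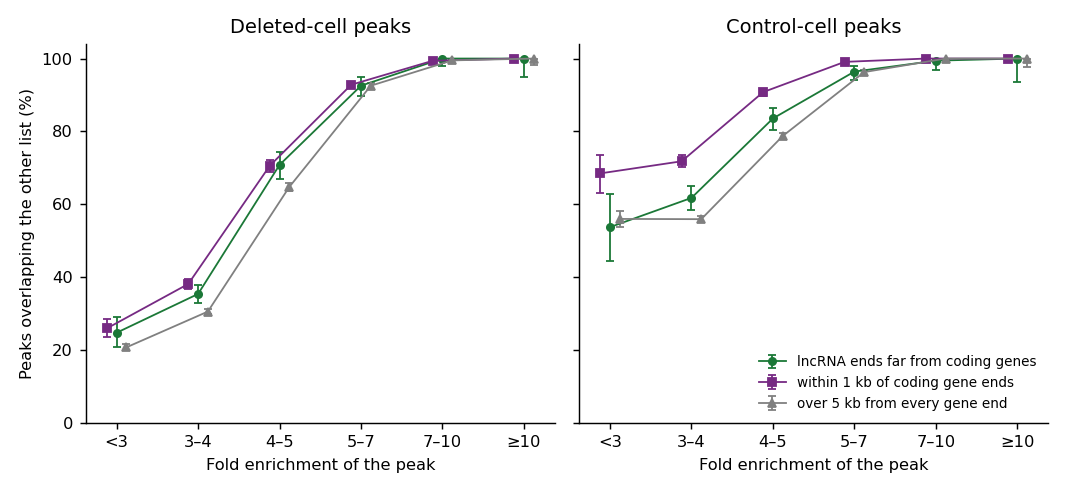
Share of peaks that overlap a peak of the other list (vertical axis, %) by the peak's own fold enrichment (horizontal axis), for deleted-cell peaks (left) and control-cell peaks (right), in 3 classes of autosomal peak with exact 95% intervals. The share is higher among high peaks in each class, at lncRNA ends reaching all 70 deleted-cell and all 56 control-cell peaks from 10 upwards. In each class and each bin below 7 it is lower among deleted-cell than control-cell peaks.

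The highest lncRNA-end peaks without a partner stayed under those of the top shared peaks. In deleted cells they were at Gm35469 inside Crhr1, at 1700066J03Rik and at A930024E05Rik near the histone demethylase gene Kdm2b, each at 6.72, then at Gm36187 with 6.38 and Gm52493 near Prdm2 with 6.33. In control cells they were at 9330175M20Rik with 7.20, at Gm34507 with 5.85, at E230001N04Rik and C030029H02Rik with 5.65 each, and at Gm52360 with 5.60. Each of these 10 was shorter than 500 bases. Where 1 peak met 1 peak, in 1447 pairs, the median fold enrichment was 4.53 in deleted cells against 4.44 in control cells, and the median length was 505 bases in deleted cells and 381 in control cells. The summits of a pair were a median of 75 bases apart, and 58.5% lay within 100 bases. As a description, Spearman's rho of fold enrichment across these pairs was 0.68. The pairs share both libraries and are not independent.

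**Figure D3:**
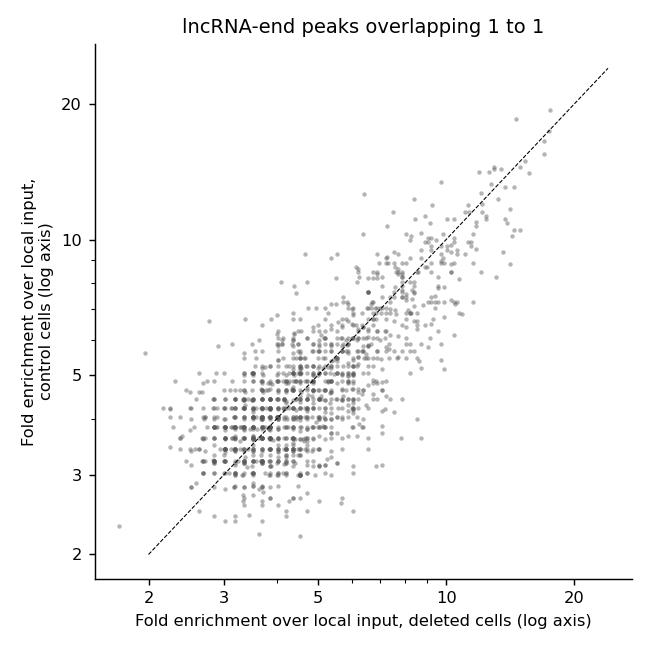
Fold enrichment over the caller's background in deleted cells (horizontal) against control cells (vertical), both on log axes. Points are the 1447 pairs of lncRNA-end peaks that overlapped 1 to 1. The dashed line marks equal values, and the medians are 4.53 in deleted cells and 4.44 in control cells.

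Set beside other peaks, the lncRNA ends stood between peaks at coding gene ends, of either side, and distal peaks. The median fold enrichment at lncRNA ends was 3.69 in deleted cells and 4.04 in control cells. Peaks within 1 kb of a coding gene end had 5.37 in deleted cells against 5.65 in control cells, and peaks over 5 kb from every gene end had 3.36 in deleted cells and 3.83 in control cells. List-only shares were ordered the same way, 46.4% in deleted cells and 23.1% in control cells at lncRNA ends, against 25.5% in deleted cells and 7.79% in control cells at coding gene ends. Far from every gene end they were 59.3% in deleted cells and 32.0% in control cells. The intervals of these shares did not overlap between classes in either list, but the classes also differed in peak height and lay closer at equal height. At a fold enrichment of 5 to 7, the other list was overlapped by 92.5% of deleted-cell peaks at lncRNA ends, 92.8% at coding gene ends and 92.5% far from every gene end. For control-cell peaks these were 96.4%, 99.1% and 96.3%. At 3 to 4 they were 35.4%, 38.1% and 30.5% in deleted cells and 61.7%, 71.8% and 55.9% in control cells. No class was set against another by a test, since the peaks of a class share their library.

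Of the lncRNA-end peaks, 37.0% in deleted cells and 38.7% in control cells lay inside the body of a coding gene, a lower share than the 66.9% in deleted cells and 67.3% in control cells of peaks over 5 kb from every gene end. The median distance to the nearest coding gene end was 27799 bases in deleted cells against 26522 in control cells, and 32.1% in deleted cells and 30.0% in control cells were more than 50 kb away. Few were shared between lncRNAs, with 107 peaks (3.43%) in deleted cells and 74 (3.27%) in control cells within 1 kb of more than 1 lncRNA gene. At the edge of the selection, the last peak taken in deleted cells was 1000 bases from the end of Gm39673 with a fold enrichment of 6.21, and the first left out was 1001 bases from Gm16159 with 3.86. In control cells these were Gm43380 at 1000 bases with 5.04 and Gm40358 at 1001 bases with 4.29. On the coding side, the nearest peak taken in deleted cells was Gm40586 at 5004 bases from Lars2 with 6.88, and the nearest left out was A230083G16Rik at 4981 bases from Mlf2 with 5.88. In control cells these were Gm32822 at 5002 bases from Ptprs with 4.44 and LOC115487221 at 4992 bases from Pkm with 3.23.

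The direction of transcription was known for the lncRNA of 2387 peaks in deleted cells and 1772 in control cells. Of these, 61.9% in deleted cells and 64.7% in control cells were at a start only, 32.6% in deleted cells and 30.1% in control cells at a far end only, and the rest at both. Peaks at starts reached a fold enrichment of 5 in 25.03% of cases in deleted cells against 30.8% in control cells, and peaks at far ends in 13.9% in deleted cells and 17.0% in control cells. List-only peaks made 42.2% of those at starts in deleted cells against 20.2% in control cells, and 55.5% of those at far ends in deleted cells and 32.6% in control cells. Summits at starts were most frequent 100 to 200 bases inside the gene, with 118 summits in deleted cells and 103 in control cells in that 100-base bin. At or past the start lay 52.3% of summits in deleted cells and 55.2% in control cells. Counted by gene instead, 5838 lncRNAs with a known strand had both ends more than 5 kb from coding genes. A peak lay within 1 kb of 14.3% of their starts in deleted cells against 10.9% in control cells, and of 7.88% of their far ends in deleted cells and 5.26% in control cells. Coding gene starts had a peak in 54.1% in deleted cells and 49.6% in control cells.

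**Figure D4:**
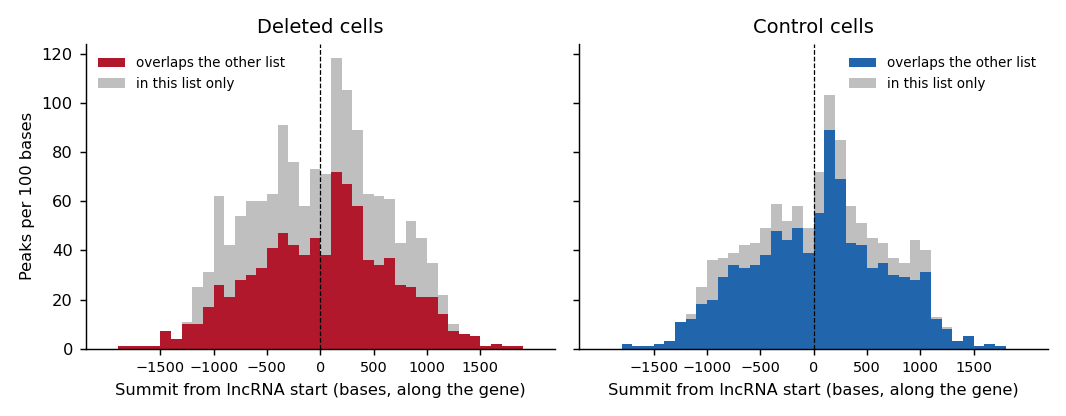
Distance of the peak summit from the lncRNA start along the gene (horizontal axis, bases) for lncRNA-end peaks at starts with a known strand, as peaks per 100 bases (vertical axis), in 1515 deleted-cell peaks (left) and 1173 control-cell peaks (right). Colour marks peaks that overlap the other list and grey those that do not, and in both panels the tallest bin is 100 to 200 bases past the start.

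By gene, 2130 of 12408 autosomal lncRNA genes (17.2%) had a lncRNA-end peak in either list. Of these, 1205 (56.6%, 54.4 to 58.7) had one in both lists, 701 (32.9%, 30.9 to 35.0) in the deleted list alone and 224 (10.5%, 9.25 to 11.9) in the control list alone. The single-list genes rested mostly on peaks without any overlap, 678 of the 701 in deleted cells and 210 of the 224 in control cells. Over all autosomal lncRNA and coding genes with a gene-end peak, 14.1% had one in the deleted list alone and 3.1% in the control list alone. Any gene-end peak of the 2130 genes, counted by that same rule, was in the deleted list alone for 31.1% and in the control list alone for 9.30%, both above that background. That background holds 11977 coding genes and 3704 lncRNA genes. Over the 3704 lncRNA genes, which include the 2130, 24.4% had one in the deleted list alone and 6.64% in the control list alone. Coding genes had 10.9% in the deleted list alone and 2.0% in the control list alone. The part of depth and peak height in these shares was not tested. Genes named only by a Gm number made up 77.0% of the 2130. Of lncRNAs with an end more than 5 kb from coding genes, 18.6% of the Gm genes (17.8 to 19.4) and 30.0% of the 363 with a name of their own (25.4 to 35.0) had a lncRNA-end peak. Gm32316 had the most, 7 in deleted cells and 6 in control cells, spread over both its ends, with a highest value of 10.6 in deleted cells and 8.88 in control cells. Next came 7 genes with 11 peaks each, among them Gm21057 with 7 in deleted cells and 4 in control cells, Gm34657 with 5 in deleted cells against 6 in control cells, and Gm3764.

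The lncRNA starts marked in both lists were richer in CpG than those marked in 1 list or in none. In the 6818 lncRNA promoters more than 5 kb from coding gene ends, the median ratio of observed to expected CpG was 0.306 for 686 marked in both lists. It was 0.222 for 366 marked in the deleted list alone, 0.221 for 117 marked in the control list alone and 0.208 for 5649 with no lncRNA-end peak. A ratio of at least 0.6 was found in 21.7% of the first (18.69 to 24.997), 4.92% of the second (2.94 to 7.66), 3.42% of the third (0.939 to 8.52) and 4.28% of those without a peak (3.77 to 4.84). Median G + C followed the same order, with 52.7% in both lists, 50.5% in the deleted list alone, 49.0% in the control list alone and 46.3% with no peak. Coding gene starts marked in both lists had a ratio of at least 0.6 in 77.9%, and all promoters of the table in 35.8%. All printed promoters lay above the lncRNA medians. The marked ones were Gm41209 (0.84), Sox6os (0.75), Pantr2 (0.61), Malat1 (0.60) and C130071C03Rik (0.49). Unmarked Meg3 (0.60) lay within their range.

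**Figure D5:**
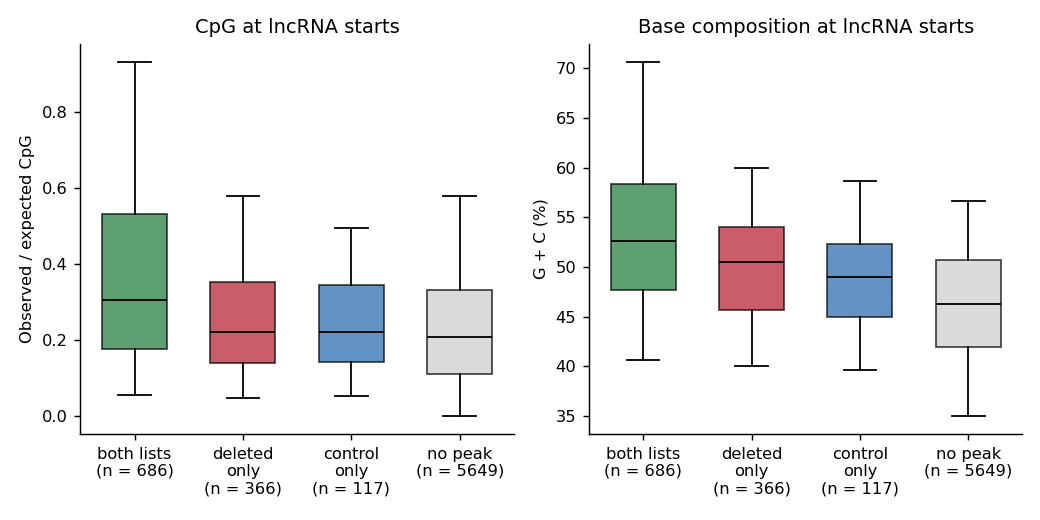
Observed over expected CpG (left) and G + C (right, %) in the 300-base promoters of lncRNAs more than 5 kb from coding gene ends, by whether a lncRNA-end peak lay at the start in both lists, in the deleted list alone, in the control list alone or in neither. Boxes give quartiles and median and whiskers the 5th and 95th percentiles, and the median CpG ratio is 0.306 in both lists against 0.208 with no peak.

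Both strands of the 300-base promoters were searched for 5 motifs. The E-box CAGCTG, of the kind bound by proneural factors, was in 22.4% of promoters marked in both lists, 21.9% in the deleted list alone, 21.4% in the control list alone, 17.2% with no peak and 16.3% of all promoters. TATAAA was in 11.8% marked in both lists, 10.1% in the deleted list alone, 13.7% in the control list alone, 18.4% with no peak and 13.6% of all. The Sox motif CATTGTT was in 3.94% marked in both lists, 5.52% with no peak and 3.78% of all. The CREB motif TGACGTCA was in 2.04% marked in both lists, 0.637% with no peak and 1.79% of all. The palindromic nuclear factor I motif was in 0 of the 686 marked in both lists, for which the exact 95% interval reaches 0.536%, and in 0.0365% of all. Among the printed promoters, Pantr2, Malat1 and C130071C03Rik hold the E-box, Gm41209 and Meg3 hold TATAAA, and Meg3 also holds the CREB motif. A match is a run of letters and no measured binding.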

How the data were processed

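H3K27ac ChIP-seq had 1 library per group, each with its own input. Bowtie 0.12.9 and mm10 are named in the submitters' processing notes. Peaks were called by the authors with MACS2 2.1.0.20140616 for each ChIP library against its input at a q-value limit of 0.05, per the file headers. Duplicate tags at a position were dropped, and the larger of ChIP and input was sampled down to the smaller. Each deposited list holds a peak's position, length and summit, its pileup signal, −log10 p and −log10 q, and its fold enrichment. The last is a ratio to the caller's background, and all are as the authors' caller wrote them. Per the file headers, tags of 80 bases were used, and after filtering 54194233 ChIP and 77101643 input tags were left for deleted cells, against 42277672 ChIP and 80601280 input tags for control cells.

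Peaks were placed against RefSeq gene ends on GRCm38.p6, 12408 autosomal lncRNA and 20661 protein-coding genes, with Python 3.11.15, pandas 2.3.3, numpy 2.4.6 and scipy 1.17.1. Strand came from the RefSeq promoter table, which matched 9291 of the lncRNAs (74.9%), and miRNAs from the RefSeq miRNA table. Overlap by 1 base or more with the other list made a peak shared. Clopper-Pearson 95% intervals are given for shares, and the same binomial gave those of ratios. They cover counting error only, and deeper sequencing lets a caller pass weaker peaks. With 1 library per group no p-value is given. The printed promoters were ranked outside chromosome 18. Planted peaks and overlaps in simulated lists were all recovered.

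The named lncRNAs are the 10 highest peaks of each list, the 5 highest without overlap in each, the lncRNAs with most peaks, and members of lists of neural, imprinted, miRNA-host, snoRNA-host, opposite-strand and other-cell-type lncRNAs that held a peak, with examples from the larger lists. These lists and the choice of peaks were made with earlier results of these data known. Alternatives were lncRNA windows of 500 and 2500 bases, 10 kb from coding genes, −log10 q of at least 5, lists of equal length, an overlap over most of the shorter peak and a fold enrichment of at least 5.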

Additional observations from a re-analysis of the deposited data

Results flagged for a closer look

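The same rule applied to the X chromosome, which the comparisons above leave out, gave 34 lncRNA-end peaks in deleted cells and 19 in control cells. It is listed because it is a signal in data outside the main measurement. Of these, 17 in deleted cells and 2 in control cells had no overlap in the other list. Deleted cells had 1074 X peaks of any kind against 658 for control cells (1.63 times as many), and over these the list-only shares were 49.6% for deleted cells and 12.2% for control cells, so the lncRNA ends stood near the rest of the X. The highest was at Jpx, a lncRNA gene beside Xist, with 8.73 in deleted cells, and at Xist with 8.07 in control cells, where Jpx had 7.33. Xist itself had 7.89 in deleted cells. Ftx, another lncRNA of the X inactivation centre, had 7.72 in deleted cells and 5.85 in control cells. The single-list peaks of deleted cells included 3 at 5330434G04Rik, with 3.19, 3.69 and 3.83, and 1 at Gm46687 with 4.87. With 1 library per group these differences have no replicate check.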

How the results depend on the processing

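No paired analysis was possible because each group had 1 ChIP library, and for the same reason no replicate could be left out. The ratio of lncRNA-end peaks in deleted to control cells lay between 1.01 and 1.43 under the alternatives run, and its interval included 1 with lists of equal length (0.957 to 1.08) and at a fold enrichment of at least 5 (0.972 to 1.21), while the list-only share stayed higher in the deleted than in the control list. With a lncRNA window of 500 bases, 42.2% of peaks in deleted cells and 19.9% in control cells had no overlap in the other list, and median fold enrichment was 3.86 in deleted cells and 4.24 in control cells. With 2500 bases these were 51.1% in deleted cells against 25.7% in control cells, and 3.53 in deleted cells and 4.0 in control cells. Requiring 10 kb from coding genes moved none of the 8 results beyond their intervals or by over 1.5 times. With −log10 q of at least 5 the ratio was 1.30, the shares 40.7% in deleted cells and 19.5% in control cells, the medians 4.53 in deleted cells against 4.84 in control cells, and 398 lncRNAs were in the deleted list alone and 753 in both. With lists of equal length, which by construction removes low peaks from the longer list, the ratio was 1.01, the shares 35.2% in deleted cells and 30.2% in control cells, the deleted-cell median 4.03, and 394 lncRNAs were in the deleted list alone and 353 in the control list alone. With the overlap required to cover most of the shorter peak (at least 50 percent), 50.4% of peaks in deleted cells and 28.2% in control cells were list-only. With both lists restricted to a fold enrichment of at least 5, chosen after seeing the data, the ratio was 1.09, the deleted-cell share 31.8%, the medians 6.38 in deleted cells against 6.25 in control cells, and 138 lncRNAs were in the deleted list alone, 95 in the control list alone and 373 in both. The equal-length and higher-limit lists drop low peaks by construction, and for the other alternatives the cause was not tested. Of the 30 named peaks, 21 were still taken with 500 bases, 19 with 10 kb and all 30 under the other alternatives. How far depth sets the list-only share was not tested, since no list called at equal depth was used here.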
